A study of Mus musculus with 29 samples.

Results

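Neutrophils carry much of their antibacterial protein ready-made, and their genes for granule and cytoplasmic defence proteins were followed here through acute and chronic colitis of the mouse colon. The set comprised 9 genes: S100a8, S100a9, Lcn2, Ltf, Camp, Ngp, Cd177, Csf3r and Retnlg. They were chosen by function, with earlier results of these data known, from the 19938 genes that have a probe set annotated with a single symbol. The array holds 35511 probe sets in all, and each of the 9 genes had exactly 1 annotated with its symbol alone.

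Colitis was induced with dextran sodium sulphate (DSS), a polysaccharide given in the drinking water that injures the colon epithelium. All groups consisted of female C57BL6J mice aged 6 weeks at the start of a common study period, and each array was 1 mouse. The paper states that the groups were of matched age when killed, so shorter courses of DSS began later in life. The 5 control mice drank normal water. The 4 mice with acute colitis received DSS for 7 days and no recovery. A cycle was 7 days of DSS and 2 weeks of normal water, and 5 mice each were studied after 1 cycle, 2 cycles and 3 cycles, with a higher DSS concentration in the later cycles than in the first. Another 5 mice had 2 cycles and then 3 additional weeks of normal water (the recovery group). RNA came from a snap frozen piece of the most inflamed colon, so the tissue was selected for inflammation within each animal, and an additional acute array that the paper describes was not analysed here. Values are log2 expression, on which a difference of 1 is a 2-fold change, and levels of different genes are not set against each other because each probe set has its own brightness.

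Neutrophils are made in the bone marrow under the growth factor G-CSF and enter inflamed colon in large numbers, where crypt abscesses are a hallmark of active colitis. Azurophil granules are filled early in maturation, specific and gelatinase granules later, and calprotectin, the S100A8 and S100A9 dimer, fills the cytoplasm. Faecal calprotectin and lactoferrin are used as markers of bowel inflammation. Several of these proteins have another source in epithelia: lipocalin 2 in inflamed colon epithelium, lactoferrin in glandular and mucosal epithelia, and calprotectin in stratified squamous epithelium.

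The stretches directly upstream of the annotated starts of 4 members are shown because these genes took different courses in the same mice: S100a8 and S100a9 as the calprotectin pair, Lcn2 with the largest rise in acute colitis, and Ltf with the largest in recovery. Each is the 250 bases before the RefSeq start in GRCm38.p6, read 5′ to 3′ on the strand of the gene, at chr3:90668821-90669070 (plus strand) for S100a8, chr3:90695722-90695971 (minus) for S100a9, chr2:32387740-32387989 (minus) for Lcn2 and chr9:111019042-111019291 (plus) for Ltf. Capitals mark matches, on either strand, to motifs of granulocyte transcription factors. The motif letters searched were TTGCNNAA for C/EBP factors, GAGGAA for PU.1 and, for NF-kB, GGGA followed by any 4 bases and CC.
S100a8: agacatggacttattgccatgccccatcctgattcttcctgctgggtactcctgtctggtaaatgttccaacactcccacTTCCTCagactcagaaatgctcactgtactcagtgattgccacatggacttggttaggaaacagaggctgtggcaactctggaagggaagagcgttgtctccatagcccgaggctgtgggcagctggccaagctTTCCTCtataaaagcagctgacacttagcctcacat
S100a9: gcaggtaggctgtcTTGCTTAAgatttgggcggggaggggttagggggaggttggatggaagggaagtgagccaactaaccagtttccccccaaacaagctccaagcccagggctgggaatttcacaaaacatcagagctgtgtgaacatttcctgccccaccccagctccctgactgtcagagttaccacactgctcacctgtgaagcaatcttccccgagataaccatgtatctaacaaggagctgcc
Lcn2: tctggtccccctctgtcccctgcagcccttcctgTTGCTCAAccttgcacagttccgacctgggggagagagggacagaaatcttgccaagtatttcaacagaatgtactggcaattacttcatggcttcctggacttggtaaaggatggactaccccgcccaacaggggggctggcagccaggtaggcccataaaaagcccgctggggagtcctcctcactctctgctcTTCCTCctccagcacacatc
Ltf: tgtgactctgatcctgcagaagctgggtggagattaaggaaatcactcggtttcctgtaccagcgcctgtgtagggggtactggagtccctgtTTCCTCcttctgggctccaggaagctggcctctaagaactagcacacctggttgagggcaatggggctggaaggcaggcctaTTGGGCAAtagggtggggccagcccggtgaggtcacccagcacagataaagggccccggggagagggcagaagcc
In S100a8 the capitals are 2 PU.1 matches and in S100a9 1 C/EBP match, and Lcn2 and Ltf each hold 1 of both kinds. Among all 9 members, 5 held a C/EBP match, against 9.57% of 32817 RefSeq promoter windows of the same length, 5 held a PU.1 match, against 23.3%, and 1 (Csf3r) an NF-kB match, against 17.6%. The windows of Cd177 and Csf3r, which hold 2 of the 5 PU.1 matches and the NF-kB match, begin at a start that differs from the bounds of the gene in the RefSeq gene table. No 2 matches overlapped. Camp had no match to any of them in this window, and Ngp had 2 C/EBP matches. S100a8 and S100a9 lie next to each other on chromosome 3 on opposite strands with no annotated gene between them, and Camp, Ngp and Ltf all lie on chromosome 9.

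Some arrays stood apart before any comparison. Keratin 5 (Krt5), the basal keratin of stratified squamous epithelium, lay between 10.19 and 12.15 in 5 arrays (recovery M1, M3, N2 and N3 and 3-cycles G3) and between 5.44 and 6.10 in the other 24. The mean of 12 squamous genes was 5.33 to 5.50 in controls, 5.51 to 5.89 in acute colitis, 5.57 to 7.36 after 3 cycles and 5.39 to 9.22 in recovery. The arrays also form 2 sets by 1 bright probe set without a listed gene: all control and 1-cycle arrays, acute B2 and B3 and 2-cycles D4 and D5 in one, and all 3-cycles and recovery arrays, acute B4 and C3 and 2-cycles E2 to E4 in the other. What separates the 2 sets is not given in the sources used here. The colon identity of the tissue was checked on 10 genes of colon epithelium, whose mean lay between 10.90 and 11.53 in every array, and the mean of 6 smooth muscle genes was 9.42 to 10.50 in acute colitis against 11.30 to 11.72 in controls.

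**Figure D1:**
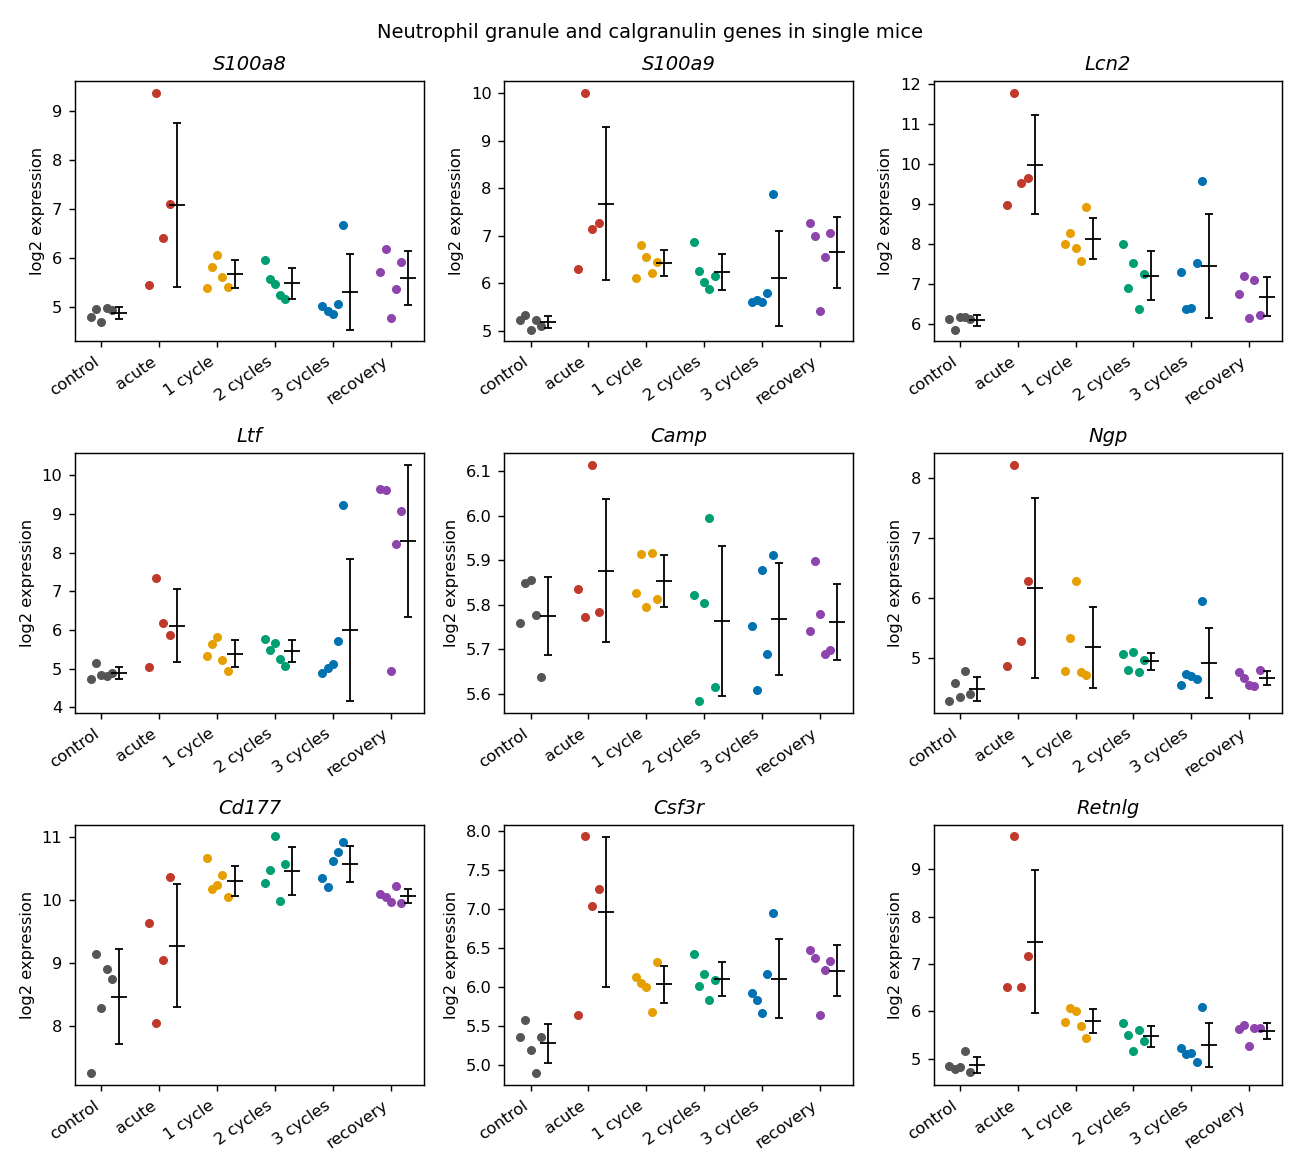
Log2 expression (vertical axes, own range per gene) of the 9 members in each mouse, 1 point per mouse, by group. Bars beside the points are the group mean with its SD (n = 4 mice in acute colitis and 5 in each other group). S100a8 reached 9.36 in acute mouse B3, Ltf 9.66 in recovery mouse M1, and Camp stayed between 5.58 and 6.12.

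Acute colitis raised 6 of the 9 members above control: S100a8, S100a9, Lcn2, Ngp, Csf3r and Retnlg, with log2 fold changes from 1.69 to 3.89. Calls rest on limma, with Benjamini-Hochberg adjustment over the 35511 probe sets, and required an adjusted p below 0.05 together with a fold change beyond 2. In this comparison 1.38% of all probe sets were called higher. The median log2 fold change of the 9 members was 1.69, against 0.04 over all probe sets. In whole tissue, more cells of a type and more RNA per cell cannot be told apart. Mouse B3 had the highest value of all 29 arrays for the same 6 genes that were called, and mouse B2 had the lowest acute value for 6 of the 9. The 6 calls held whichever array was left out, B3 included. Without dim probe sets 3 remained, since 5 of the 9 members lie below the median brightness of all probe sets and then leave the fit.

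The calgranulins S100A8 and S100A9 form calprotectin, which binds zinc and manganese and so starves bacteria of them. S100a8 lay at 4.79, 4.96, 4.69, 4.97 and 4.93 in control mice A1, A2, A5, L1 and L2. In acute mice B2, B3, B4 and C3 it was at 5.45, 9.36, 6.40 and 7.10. Every acute mouse was above every control mouse, with B3 over 2 units above the next. The log2 fold change of S100a8 was 2.21 (95% confidence interval 1.25 to 3.17, adjusted p = 0.000925, limma), and 1.45 without B3. Its partner S100a9 was at 5.22, 5.34, 5.03, 5.23 and 5.11 in controls and at 6.30, 10.01, 7.14 and 7.26 in the acute mice, in the same order of mice. The log2 fold change of S100a9 was 2.49 (1.45 to 3.54, adjusted p = 0.000617), and 1.72 without B3.

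Lipocalin 2 binds the siderophores with which bacteria take up iron, and Lcn2 had the largest log2 fold change of the 9, 3.89 (95% confidence interval 2.84 to 4.94, a 14.8-fold rise, adjusted p = 3.58e-06, limma). Control mice ranged from 5.86 (A2) to 6.18 (A5), with a mean of 6.09 ± 0.13 (SD, n = 5). The acute values were 8.97, 11.78, 9.52 and 9.64 in B2, B3, B4 and C3, so that even B2 was well clear of the controls. Without B3 the log2 fold change of Lcn2 was 3.29.

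Retnlg encodes a resistin-like protein of neutrophils. It was 4.86, 4.78, 4.83, 5.18 and 4.73 in controls and 6.52, 9.69, 6.52 and 7.17 in acute mice B2, B3, B4 and C3. The log2 fold change was 2.60 (SE 0.38, adjusted p = 1.47e-05, limma). The lowest 2 acute mice had the same rounded value and were both more than 1 unit above control L1. Csf3r is the receptor for G-CSF, the factor that drives production and release of neutrophils. Its values were 5.36, 5.58, 5.19, 4.89 and 5.35 in controls and 5.64, 7.93, 7.04 and 7.25 in acute mice, so B2 was barely above the highest control. The log2 fold change of Csf3r was 1.69 (SE 0.29, adjusted p = 0.000111).

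Ngp and Camp both belong to the cathelicidin-related proteins of specific granules, of which Ngp was called and Camp was not. Ngp (neutrophilic granule protein) was 4.29, 4.59, 4.35, 4.78 and 4.40 in controls and 4.87, 8.23, 5.29 and 6.29 in acute mice. B2 exceeded the highest control by little, while B3 stood far above. The log2 fold change of Ngp was 1.69 (SE 0.42, adjusted p = 0.00388, limma) and 1.00 without B3, and the call was lost when just the acute and control arrays were fitted, or just the arrays of the first set (2.07, adjusted p = 0.0632, with 2 acute mice). Camp, the gene of the cathelicidin antimicrobial peptide, lay at 5.83, 5.77, 6.12 and 5.78 in the acute mice against 5.64 to 5.86 in controls, with a log2 fold change of 0.10 (-0.07 to 0.27, adjusted p = 0.423). Over all 29 arrays Camp had an SD of 0.12 on the log2 scale, larger than that of 10.3% of probe sets, and it was not called in any comparison. Whether its probe set detects the transcript at all cannot be read from these values.

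Lactoferrin, the iron-binding protein of specific granules encoded by Ltf, was 4.74, 5.13, 4.84, 4.81 and 4.90 in controls and 5.05, 7.35, 6.17 and 5.86 in acute colitis. B2 lay within the controls and the other 3 acute mice above them. Its log2 fold change of 1.22 missed the threshold (95% confidence interval -0.32 to 2.77, adjusted p = 0.263, limma), where the shared spread includes the widely scattered recovery group. Without the 5 arrays high in Krt5, a setting added after the data were seen, the same difference of Ltf passed (adjusted p = 0.00423), as it did when just the acute and control arrays were fitted.

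Cd177 encodes a surface protein of neutrophils that binds endothelium, and which cells gave its signal here was not tested. It was 7.25, 9.14, 8.28, 8.91 and 8.75 in controls and 9.63, 8.05, 9.05 and 10.37 in acute mice. The groups overlapped, and B3, the highest acute mouse for 7 other members, was the lowest for Cd177. The log2 fold change was 0.81 (0.13 to 1.49, adjusted p = 0.0825, limma), and without B3 it was 1.22 and passed (adjusted p = 0.00472).

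**Figure D2:**
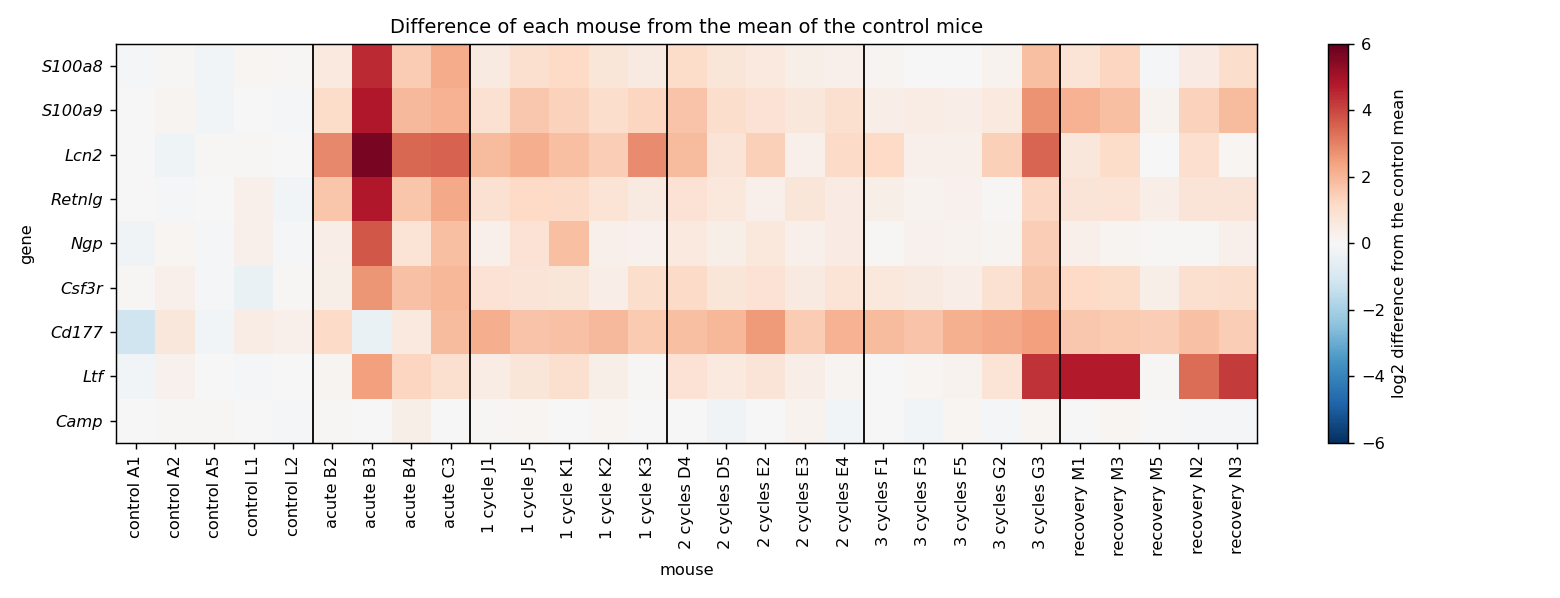
Difference of each mouse (columns, by group) from the mean of the 5 control mice for each member (rows), in log2 units, blue below and red above the control mean on a scale that is the same on both sides. For the upper 6 genes red is deepest in acute column B3, while B2 is pale for S100a8, Ngp and Csf3r. Red also marks the columns from 1 cycle onward for Cd177, and 4 recovery columns and 3-cycles G3 for Ltf.

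Other genes listed under neutrophil functions were counted in the same comparison, and which cells gave their signal was not tested. Of 10 measured genes of specific and gelatinase granules 6 were called higher, and all 10 passed the adjusted p alone in limma. The largest log2 changes were those of Hp (haptoglobin, 2.63), Mmp8 (neutrophil collagenase, 2.12), Chil3 (2.12) and the integrin chain Itgb2 (1.83). Of 10 measured neutrophil receptors 7 were called higher (7 passed the adjusted p alone), among them the Fc receptor Fcgr4 (2.85), the chemokine receptor Cxcr2 (2.36), Clec4d (2.03) and Trem1 (1.75). Of 5 azurophil granule genes 0 were called by limma (1 at an unadjusted p under 0.05). Their log2 fold changes included 0.22 for Mpo, 0.20 for Prtn3, 0.15 for Ctsg and 0.14 for Bpi. The azurophil list mean stayed between 4.94 and 5.34 in all arrays, below the array medians of 6.02 to 6.14. Whether these probe sets detect the transcripts cannot be read from these values, so no difference between granule classes is drawn from them. The probe set of Ly6g, the usual marker of mouse neutrophils, had no call: its log2 fold change was -0.19 (adjusted p = 0.824) and it was already at 10.46 to 11.83 in controls. Whether this probe set measures Ly6g could not be settled from these values, so it gives no reading of neutrophils.

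Of 7 measured stefins and other cytoplasmic genes 2 were called higher, Acod1, which makes itaconate, by 3.10 and Hdc, which makes histamine, by 1.30. Slfn4 (0.93) passed the adjusted p alone (0.00232, limma), and Stfa3 (0.31) did not pass. Of 6 granulocyte transcription factors 2 were called higher, Spi1, which encodes PU.1, by 1.52 and Cebpd by 1.16 on the log2 scale. Cebpb (0.82) passed the adjusted p alone (0.000236, limma), and Cebpe was at 0.28. Signals that produce or attract neutrophils were called higher in 4 of 11, which were Il1b (3.63), Il1a (3.40), Cxcl5 (3.06) and Cxcl2 (2.76). By limma 9 of the 11 passed the adjusted p alone, and all 11 an unadjusted p under 0.05. Of the 7 receptors and partners of the member proteins 0 were called, with Tlr4, a receptor for calprotectin, at 0.38, Slc22a17, a receptor for lipocalin 2, at -0.19 and Cd36 at -0.68. In limma 1 of these 7 passed the adjusted p alone (Tlr4, adjusted p = 0.0441), and 3 passed an unadjusted p under 0.05.

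Few relatives of the members by family were called. None of 13 other S100 genes was called in acute colitis by limma, as all changed less than 2-fold. Even so, 5 of them passed the adjusted p alone, and 7 an unadjusted p under 0.05. The 4 with the largest differences were S100a11 at 0.82 (adjusted p = 2.28e-06, limma), S100a14 at 0.51, S100a16 at 0.50 and S100a1 at -0.49 (adjusted p = 0.000225). Of 3 other resistin family genes, Retnlb, a goblet cell product, rose by 3.43, while Retnla was at -0.95 and Retn at -0.87. Markers of other cells moved in the same mice. Of 8 measured monocyte and macrophage genes 5 were called higher and 7 passed the adjusted p alone in limma, with Ccr2 at 1.85 and Csf1r at 1.21. Their list mean ranged from 7.12 to 8.48 in acute mice against 6.80 to 7.14 in controls. Of 6 smooth muscle genes 6 were called lower (1.4% of all probe sets were lower). Of 10 genes of colon epithelium 1 was called lower, and 3 passed the adjusted p alone. Of 5 measured eosinophil genes 0 were called (3 at an unadjusted p under 0.05). Il5ra passed the adjusted p alone (log2 fold change 0.66, adjusted p = 0.000401, limma). The eosinophil list mean lay between 5.08 and 5.45 in acute mice against 4.85 and 5.06 in controls. The part of these cells in the members' changes was not tested.

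After 1 cycle, 2 of the 9 members were higher than in control, Lcn2 and Cd177, where 0.87% of all probe sets were higher. All comparisons with control use the same 5 control arrays. Lcn2 was 7.99, 8.28, 7.90, 7.57 and 8.93 in mice J1, J5, K1, K2 and K3, each above every control. Its log2 fold change was 2.04 (SE 0.48, adjusted p = 0.00891, limma). S100a8 was between 5.39 and 6.07 and S100a9 between 6.12 and 6.81, also above every control mouse, with log2 fold changes of 0.79 (adjusted p = 0.347) and 1.24 (adjusted p = 0.129). The second of these passed without acute mouse B3 (adjusted p = 0.0272 for S100a9), whose scatter enters the shared spread.

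After 2 cycles 1 member was higher (0.907% of all probe sets), Cd177. S100a9 was 6.88, 6.25, 6.03, 5.88 and 6.16 in mice D4, D5, E2, E3 and E4 and Lcn2 7.99, 6.89, 7.53, 6.37 and 7.25. Each of these values was above the highest control, yet the log2 fold changes of 1.06 for S100a9 (adjusted p = 0.219, limma) and 1.12 for Lcn2 (adjusted p = 0.192) missed the threshold. When just these 2 groups were fitted, 3 members passed, S100a9, Lcn2 and Cd177, and the share of all probe sets is not given for that fit.

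After 3 cycles 1 member was again higher (1.02% of all probe sets), Cd177, and Lcn2 came close with a log2 fold change of 1.35 (adjusted p = 0.0506, limma). Mice F1, F3, F5 and G2 were near control for S100a8, at 5.02, 4.91, 4.85 and 5.06, and G3 was at 6.67. For Lcn2 the 5 mice were at 7.31, 6.38, 6.41, 7.53 and 9.58, so that G3 again stood alone. Without G3 the log2 fold change of S100a8 was 0.09 and that of Lcn2 0.81, while Cd177 stayed at 2.01 (adjusted p = 0.000572). Csf3r passed the adjusted p (0.0369) at a fold change under 2 (log2 0.83).

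**Figure D3:**
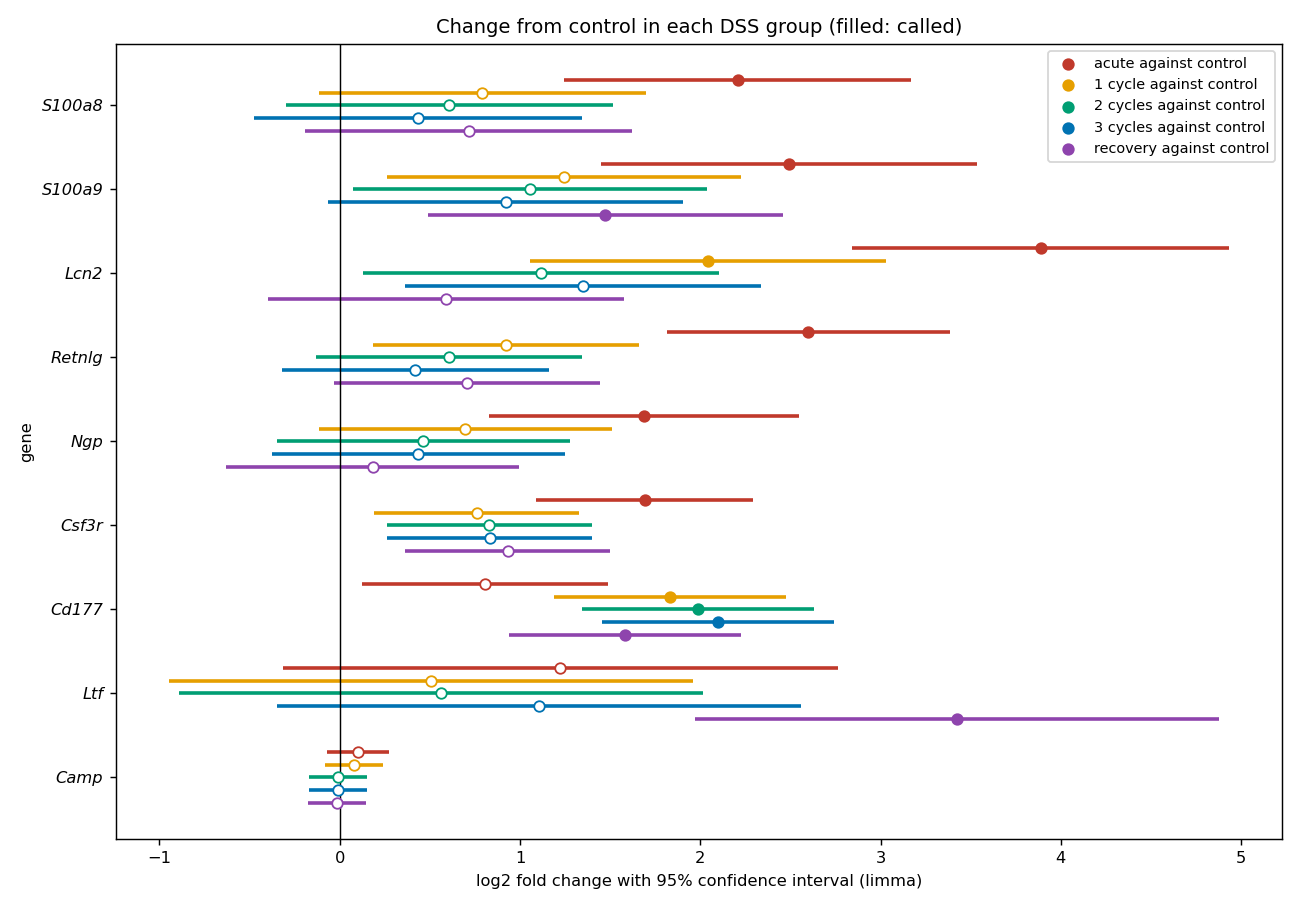
Log2 fold change of each member against control (horizontal axis) with its 95% confidence interval from limma, 1 colour per DSS group. Filled points were called (adjusted p under 0.05 and over 2-fold). In acute colitis 6 members are filled, and Cd177 is filled in each of the 4 other groups, at 1.58 to 2.10.

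The acute group was set against the mean of the 1-, 2- and 3-cycles groups to test whether the acute level differed from the chronic one. In that test 5 of the 9 members were higher in acute colitis (0.282% of all probe sets) and 1, Cd177, was lower (0.631%). The 5 were Lcn2 with a log2 fold change of 2.39 (adjusted p = 0.000395, limma), Retnlg with 1.95 (0.000154), S100a8 with 1.60 (0.00676), S100a9 with 1.42 (0.0267) and Ngp with 1.15 (0.0292). Csf3r was at 0.88 (adjusted p = 0.0167) with a fold change under 2, Ltf at 0.50 (adjusted p = 0.728) and Camp at 0.08 (adjusted p = 0.562). Without B3 the calls of S100a8 (0.84), S100a9 (0.64), Ngp (0.47) and Cd177 (-0.76) were lost, and those of Lcn2 (1.78, adjusted p = 0.00517) and Retnlg (1.21, adjusted p = 5.57e-05) held. The Ngp call was also lost without C3 (1.11), and Csf3r passed without B2 (1.33). S100a9 and Ngp lost their calls when just the compared groups were fitted, and S100a9 and Cd177 with array weights.

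Group by group the picture was narrower. Against 1 cycle, acute colitis had 2 members higher (0.197% of all probe sets), Lcn2 by 1.84 (adjusted p = 0.0315, limma) and Retnlg by 1.68 (adjusted p = 0.00961), and without B3 neither passed. Against 2 cycles it had 3 higher (0.298%), S100a8 by 1.60, Lcn2 by 2.77 and Retnlg by 1.99, and 1 lower (0.786%), Cd177 by -1.18 (adjusted p from 0.000765 to 0.0286). Against 3 cycles it had 4 higher (0.298%), S100a8 by 1.77, S100a9 by 1.57, Lcn2 by 2.54 and Retnlg by 2.18, and 1 lower (0.58%), Cd177 by -1.29 (adjusted p from 0.000406 to 0.0434). Without B3, 2 members passed in each of these last comparisons, Lcn2 and Retnlg, and without B2 the counts were 7, 7 and 7. The share of all probe sets called in these refits is not given here, so the counts are not set against it. When just the compared groups were fitted, no member passed against 1 or 3 cycles and Lcn2 alone passed against 2 cycles. With the array sets in the model S100a8 (1.495), S100a9 (1.21) and Cd177 (-1.05) lost their calls against 3 cycles, and that of S100a9 was lost in 11 of the 29 fits with 1 array left out. The Lcn2 call against 1 cycle was lost in 6 such fits. Against 2 cycles the call of S100a8 was lost in 4 and that of Cd177 in 3. These comparisons share the acute arrays.

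Cd177 was called in all 4 groups that had completed a cycle. After 1 cycle it was 10.66, 10.17, 10.23, 10.39 and 10.05, after 2 cycles 10.26, 10.48, 11.002, 9.97 and 10.56, and after 3 cycles 10.35, 10.20, 10.61, 10.76 and 10.91. In recovery it was 10.09, 10.04, 9.96, 10.22 and 9.94. All 20 of these mice were above all 5 controls, and C3 was the one acute mouse in their range. The log2 fold changes against control were 1.83, 1.99, 2.10 and 1.58 (adjusted p = 0.000703, 0.000294, 0.000101 and 0.00183, limma). These calls held with any array left out, but those of 3 cycles (1.62, adjusted p = 0.0843) and recovery (1.11, adjusted p = 0.321) were lost with the array sets in the model, and that of 2 cycles (1.90, adjusted p = 0.0667) was lost within the first set. For 1 cycle, where every array and every control belongs to the first set, the call of Cd177 held there (1.83, adjusted p = 0.00968).

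**Figure D4:**
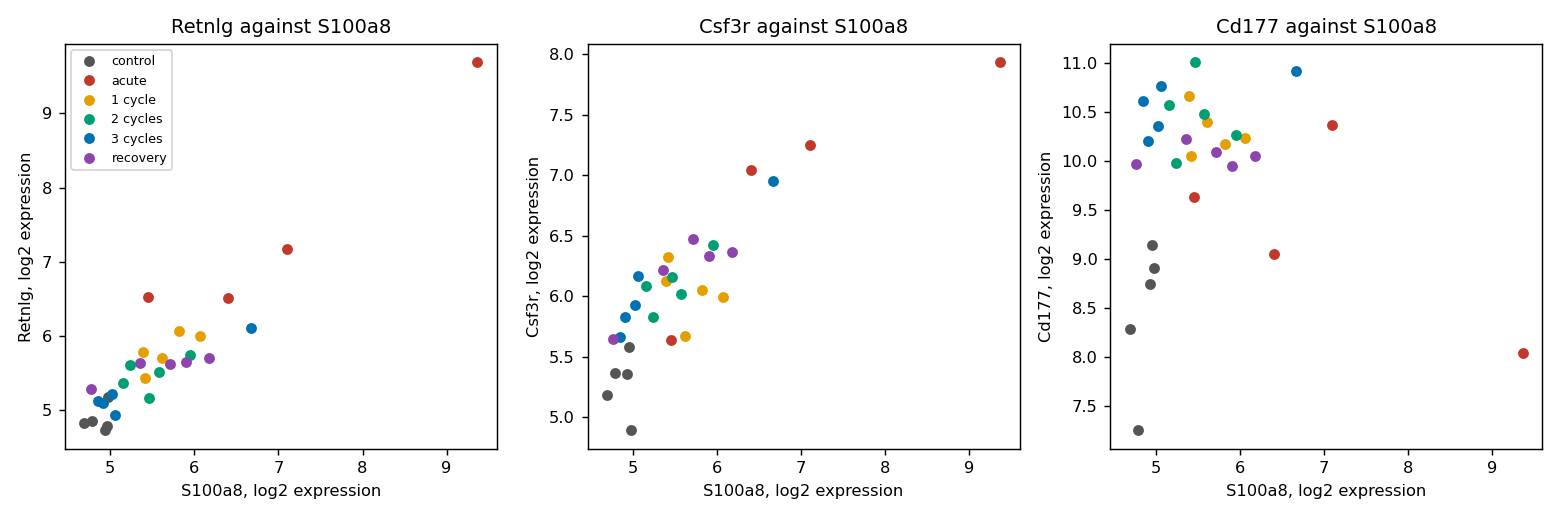
Log2 expression of Retnlg, Csf3r and Cd177 (vertical axes) against that of S100a8 (horizontal axes), 1 point per mouse, 29 mice, colour by group. Retnlg and Csf3r are highest in the mouse with the highest S100a8 (B3, at 9.36), where Cd177 is at 8.05, lower than in any mouse after a cycle.

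In recovery 3 members were higher than in control (1.08% of all probe sets): Ltf, S100a9 and Cd177. Ltf was 9.66, 9.63, 8.23 and 9.09 in M1, M3, N2 and N3, and 4.94 in M5, which lay within the controls. Its log2 fold change was 3.43 (SE 0.71, a 10.7-fold rise, adjusted p = 0.00259, limma). S100a9 was 7.27, 6.99, 6.55 and 7.07 in the same 4 mice and 5.41 in M5, a log2 fold change of 1.47 (SE 0.48, adjusted p = 0.0423) that was lost without any 1 of the controls or of M1, M3, N2 and N3 (adjusted p = 0.116 at most). S100a8 was 5.71, 6.18, 5.36 and 5.91 there and 4.77 in M5 (log2 fold change 0.71, adjusted p = 0.309). Csf3r had a log2 fold change of 0.93 (adjusted p = 0.0272) with a fold change under 2. All recovery arrays belong to the second set and all controls to the first, and with the array sets in the model the calls of Ltf (3.67, adjusted p = 0.118) and S100a9 (2.20, adjusted p = 0.16) were lost.

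The 4 recovery mice with high Ltf were the 4 with high Krt5, and 3-cycles mouse G3 also had both, with Ltf at 9.23 and Krt5 at 10.91. Of the 12 squamous genes 8 were called higher in recovery, and 10 passed the adjusted p alone in limma. Krt5 was at 4.62, Krt6a at 4.39, Krt4 at 4.31 and Krt13 at 4.05 on the log2 scale. Without these 5 arrays the recovery group is M5 alone, which is then assumed to vary like the other mice, and Ltf was at 0.06 (adjusted p = 0.984), S100a9 at 0.22 (adjusted p = 0.956) and S100a8 at -0.10 against control. Ngp and Lcn2 had no call in recovery. In the 4 mice high in Krt5, Ngp was 4.54 to 4.80, against 4.29 to 4.78 in controls, and Lcn2 6.21 to 7.19, against 5.86 to 6.18. M5, at 6.14 for Lcn2, lay within the controls, so that the recovery group and the controls overlapped. G3 was higher than these recovery mice, with Ngp at 5.95, Lcn2 at 9.58, Csf3r at 6.95 and Retnlg at 6.10, the highest of its group for each. In the 4 recovery mice high in Krt5, Csf3r was 6.22 to 6.47, against 4.89 to 5.58 in controls. Retnlg was 5.62 to 5.70 in them, against 4.73 to 5.18 in controls. Cxcr2, the chemokine receptor, was 6.38 in G3, 5.11 to 5.38 in the 4 recovery mice, 4.20 in M5 and 3.74 to 4.01 in controls. The part of squamous tissue in the values of Ltf and S100a9 was not tested.

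**Figure D5:**
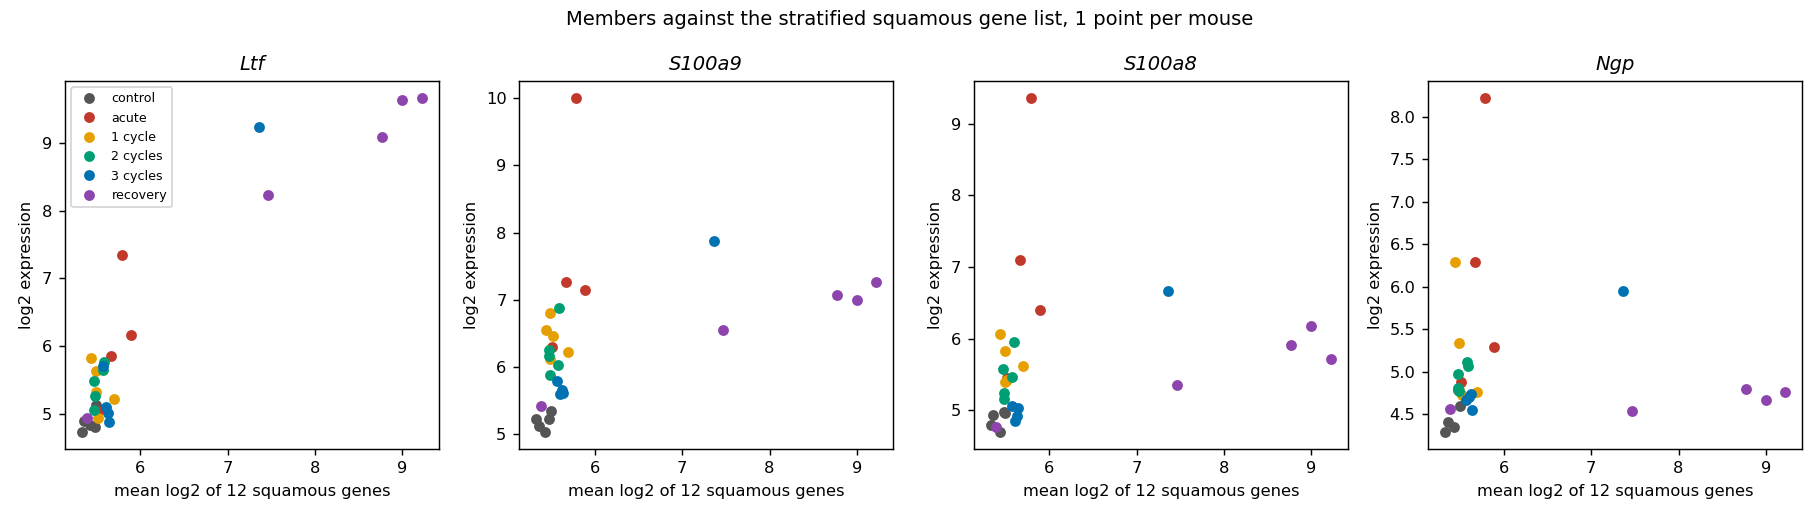
Log2 expression of Ltf, S100a9, S100a8 and Ngp (vertical axes) against the mean log2 value of 12 squamous genes (horizontal axes), 1 point per mouse, colour by group. For Ltf the 5 mice with a squamous mean of 7.36 or more hold the 5 highest values, 8.23 to 9.66, while Ngp is 4.54 to 4.80 in the 4 recovery mice among them.

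Recovery was also compared with 2 cycles, which had the same DSS courses without the 3 additional weeks of normal water after them. As ages were matched when the mice were killed, the recovery mice had also begun DSS earlier in life. Of the 9 members 0 were called by limma (0.152% of all probe sets were higher), and 1 passed at an unadjusted p under 0.05. This was Ltf, with a log2 fold change of 2.86 (SE 0.71, adjusted p = 0.103). The call was made without M5 (3.70) and without G3 (2.86). Without the 5 arrays high in Krt5, which hold the high Ltf values, recovery is M5 alone, and the difference was -0.50.

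Genes with the profile most like that of a member were sought over all 29 arrays among 19938 genes, by the root mean square difference of the centred log2 values, as a description with no test. S100a8 was nearest to Trem1, an activating receptor of neutrophils and monocytes (0.27), and to Ifitm6 (0.31) and Retnlg (0.32). S100a9 was nearest to Cxcr2 (0.29), then S100a8 (0.32) and Tnfaip2 (0.38), and Retnlg to Mmp8 (0.30), S100a8 (0.32) and Timp1 (0.36). Ngp was nearest to Clec5a (0.32), Trem3 (0.33) and the integrin chain Itgam (0.33), and Csf3r to Pla2g7 (0.24), Icam1 (0.24) and AB124611 (0.26). Lcn2 was nearest to Saa3, an acute phase serum amyloid (0.32), followed by Ly6i (0.57) and Hp (0.59). Ltf was nearest to Tgm1, a transglutaminase of the cornified envelope (0.42), Dsg3, a desmoglein of stratified epithelium (0.49), and Tmprss11g (0.57). Cd177 was nearest to Ceacam10 (0.46), Derl3 (0.54) and Nox1, an oxidase of colon epithelium (0.56). For scale, the SD over the 29 arrays was 0.94 for S100a8, 1.03 for S100a9, 0.96 for Retnlg, 0.80 for Ngp and 0.64 for Csf3r. It was 1.41 for Lcn2, 1.57 for Ltf and 0.90 for Cd177.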

How the data were processed

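Colon RNA of 29 mice was measured on Affymetrix Mouse Gene 1.0 ST arrays (1 per mouse), which measure each transcript with a probe set, a group of short DNA probes. The authors deposited 1 log2 value per probe set and array, made with the robust multichip average (RMA) method in R 2.12.2, a background correction followed by quantile normalization and a robust summary of each set of probes. No probe signal or background level was used here, so the number of arrays limits the precision and a dim value cannot be told from absence. RMA also draws low values together, which understates changes of dim genes. Of the columns of values, 0 were left out. Array medians lay between 6.02 and 6.14 and correlations between arrays, taken across probe sets, between 0.943 and 0.992.

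Groups were taken from the labels, and the letter and digit of a label (A1, B2) name the mouse. Nothing was filtered or normalized again. All 35511 probe sets were fitted with limma 3.58.1 in R 4.3.3, with 1 mean per group and 1 spread over all 6 groups, and p-values were adjusted over all probe sets within a comparison. A call required an adjusted p below 0.05 together with a fold change beyond 2. The script was first tested on simulated data with known changes. The 9 members, the gene lists and the motifs were chosen with earlier results of these data known. All 9 members are named. Of each other list the text names up to 4 genes with the largest change in acute colitis (squamous genes in recovery) and, beyond that rule, some chosen after their values were seen (Ly6g, Krt5 by array, Csf1r and Cxcr2 by array). Nearest genes were sought for called members with an SD of at least 0.5, and 3 are given for each. Gene names come from the annotation of the array and promoters from RefSeq (GRCm38.p6), with all 9 members matched. Alternatives were fits of the compared groups alone, array sets as a covariate or fitted singly, the label letter as a random block, array weights, another prior, quantile normalization or centring again, a filter on dim or unnamed probe sets, calls by adjusted p alone, and each array left out. After the data were seen, fits without the 5 arrays high in Krt5 and within the second set of arrays were added.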

Additional observations from a re-analysis of the deposited data

Results flagged for a closer look

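In 3-cycles mouse G3, 5 members lay apart from the other 4 mice of the group, further than expected of 1 sample by Dixon's test: S100a8 at 6.67, S100a9 at 7.87, Ltf at 9.23, Ngp at 5.95 and Retnlg at 6.10. The same test marked Lcn2 in control A2 (5.86, low), Retnlg in control L1 (5.18, high) and Retnlg in recovery M5 (5.28, low). Chance marks about 1 in 20 groups, and 8 of the 54 sets of values (9 genes in 6 groups) were marked here, 5 of them through G3.

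The acute group differed from the mean of the chronic groups by limma for Lcn2 (2.39 higher on the log2 scale), Retnlg (1.95), S100a8 (1.60), S100a9 (1.42) and Ngp (1.15), and for Cd177 in the other direction (-1.17). Each group has the same controls, so this is also the difference between their changes from control. The calls of S100a8, S100a9, Ngp and Cd177 were lost without mouse B3. Those of S100a9 and Ngp were also lost when just the compared groups were fitted, and those of S100a9 and Cd177 with array weights.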

How the results depend on the processing

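The count of members called against control was 6 in acute colitis (6 to 7 with each array left out), 2 after 1 cycle (2 to 3), 1 after 2 cycles (1 to 1), 1 after 3 cycles (1 to 2) and 3 in recovery (2 to 4). For acute colitis against the chronic mean it was 6 (2 to 7), against 1 cycle 2 (0 to 7), against 2 cycles 4 (2 to 7) and against 3 cycles 5 (2 to 7), with the low ends without B3 and the high ends without B2, and for recovery against 2 cycles 0 (0 to 1). Without dim probe sets, which leaves 4 members, it was 3 in acute colitis, 2 after 3 cycles, 3 against the chronic mean and 3 against 3 cycles. With just the compared groups fitted it was 3 after 2 cycles, and 0, 1 and 0 for acute colitis against 1, 2 and 3 cycles. Within the first set of arrays it was 0 after 2 cycles and 0 against 1 and 0 against 2 cycles, and within the second 2 against 2 cycles and 2 against 3 cycles. With the array sets as a covariate it was 0 after 3 cycles, 0 in recovery and 2 against 3 cycles. With the label letter as a block, or with just the probe sets of 1 symbol, it was 2 after 3 cycles, 4 against 1 cycle and 1 for recovery against 2 cycles, and with array weights 2, 1 and 1. By adjusted p alone it was 2 after 3 cycles. Without the 5 arrays high in Krt5, which leaves M5 alone in recovery, S100a8 in recovery (-0.10) and Ltf between recovery and 2 cycles (-0.50) changed sign. The cause was not tested where the fewer samples or genes of a setting do not show it. For these settings the share of all probe sets called is not given here, so the counts are not set against it. Quantile normalization again, centring and another prior changed no call of a single member.

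No paired analysis was possible because each mouse belongs to 1 group. Other probe sets of a member could not be tried, since each has 1. With 4 or 5 arrays a group, differences within the scatter of acute mouse B3 or of the recovery group were not resolved.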
